A study of Mus musculus with 10 samples.

Results

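A group of 10 genes that cut, protect or crosslink the extracellular matrix was followed in subcutaneous lung tumors of obese mice given liraglutide, an agonist of the glucagon-like peptide-1 receptor, or vehicle. They were taken by mouse gene symbol: 5 matrix metalloproteinases (Mmp2, Mmp3, Mmp9, Mmp13 and Mmp14), 3 tissue inhibitors of metalloproteinases (Timp1, Timp2 and Timp3) and 2 lysyl oxidases (Lox and Loxl2). All 10 were found among the 55401 genes of the count table, and all 10 passed the low-count filter that left 17464 genes for testing. The tumors grew in the flank from 75000 injected KPN1.1 cells, a mouse lung adenocarcinoma line that holds the NINJA neoantigen construct. The hosts were male C57BL/6J mice made obese with a high-fat diet and aged 7 to 17 weeks at injection. From the time a tumor could be felt, mice received liraglutide (0.2 μg per g body weight) or phosphate-buffered saline intraperitoneally every day. Tumors were taken 19 to 22 days after injection, and the labels also give a tumor volume endpoint, the same for all 10 samples. The libraries cover 5 tumors of each treatment, those kept by the study after its quality assessment. Liraglutide tumors and vehicle tumors therefore shared the line, the diet and the route, and each library came from a fragment of 1 tumor. With a single cell line, the model covers 1 tumor genotype.

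Matrix metalloproteinases are zinc enzymes that cleave collagens and other matrix proteins. Most are secreted as inactive proenzymes, while Mmp14 sits in the cell membrane and there activates proMmp2 with Timp2 as a bridge. Tissue inhibitors of metalloproteinases block the active enzymes, and Timp3 differs from the others by binding to the matrix and by inhibiting several ADAM proteases. Lysyl oxidases oxidize lysines of collagen and elastin, the step that leads to covalent crosslinks and a stiffer matrix. In tumors these proteins are made by stromal cells, leukocytes and cancer cells alike.

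The leading difference among the tumors did not follow the treatment. Total counts ran from 9927942 to 14480593 per tumor, so that 3 counts, the floor used here, stood for 0.207 to 0.315 counts per 1000000 of a library (CPM). The first principal component held 48.7% of the variance, with vehicle 1, 2 and 3 and liraglutide 1 and 2 on its negative side (-69.3 to -4.4) and vehicle 4 and 5 and liraglutide 3, 4 and 5 on its positive side (24.2 to 49.7), and vehicle 5 lay far out on the second, at -54.6 against -18.5 to 21.4 in the other 9. Markers of the labelled tumor type were mixed. Krt8, a keratin of simple epithelia, was at 1630 to 3290 CPM, Nkx2-1, the lung lineage factor, at a mean of 46.3 CPM with vehicle and 91.8 CPM with liraglutide, and the adhesion protein Cdh1 at 560 to 2240 CPM. Of the same 10 epithelial markers, Epcam, Cldn7 and Cldn4 stayed at or below 4.63 CPM in every tumor. Of the 10 lung markers, Sftpb (65.1 to 530 CPM), Abca3 (55.9 to 177 CPM) and Foxa2 (30.6 to 68.7 CPM) were present throughout, Sftpa1 and Scgb1a1 reached 17.3 and 20.4 CPM, and Sftpc, Napsa, Sftpd and Lamp3 stayed at or below 5.95 CPM. Fibroblast markers summed to 1480 to 3590 CPM in vehicle tumors and 1970 to 3650 CPM in liraglutide tumors, and macrophage markers to 628 to 1160 CPM and 664 to 881 CPM. T and NK cell markers were sparse, at 6.08 to 30.1 CPM and 9.59 to 38.2 CPM. Neutrophil markers summed to 6.11 to 14.0 CPM and 6.91 to 13.8 CPM, and 3 of the defining ones (Ly6g, Ngp and Elane) had at most 3 counts in every tumor. In bulk tumor RNA, fewer cells of a type and less RNA per cell cannot be told apart.

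Mmp13 and Mmp3, among the 3 metalloproteinases of the 5 with the highest levels per length, are neighbors. Mmp13 (listed in the count table as ENSMUSG00000050578.10) spans chr9:7272514-7283331 and Mmp3 (ENSMUSG00000043613.8) chr9:7445822-7455975, both on the plus strand. Here and below, IDs carry the version of the count table, and positions are those of GENCODE M39 on GRCm39. They belong to a run of 10 metalloproteinase genes in the order Mmp13, Mmp12, Mmp1b, Mmp3, Mmp1a, Mmp10, Mmp8, Mmp27, Mmp20 and Mmp7, of which Mmp20 and Mmp7 had 0 counts in every tumor. RefSeq promoter windows on GRCm38.p6, from 250 bases before to 50 after the start site, were at hand for 6 of the 10 genes. The AP-1 motif TGANTCA, searched on both strands, matched in 2 of those 6, Mmp13 and Mmp3. It lies in 7.8% of the 32851 windows of the table. The 100 bases before the start of Mmp13, Mmp3 and their neighbor Mmp10 are shown because all 3 hold the match, written in capitals, within a short distance of the start. Matches are described as letters only, and no binding was measured.
Mmp13 (chr9:7272414-7272513, + strand): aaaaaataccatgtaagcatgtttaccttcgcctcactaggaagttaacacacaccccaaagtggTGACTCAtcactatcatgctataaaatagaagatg
Mmp3 (chr9:7445722-7445821, + strand): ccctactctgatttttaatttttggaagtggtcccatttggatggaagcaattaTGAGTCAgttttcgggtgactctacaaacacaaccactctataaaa
Mmp10 (chr9:7502242-7502341, + strand): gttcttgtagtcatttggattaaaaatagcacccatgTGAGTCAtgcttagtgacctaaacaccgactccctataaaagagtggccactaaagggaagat

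The match began 35 bases before the start of Mmp13, 46 before that of Mmp3 and 63 before that of Mmp10. Mmp12, another neighbor, had 2 RefSeq windows, of which 1 held a match, 44 bases before its start, and the other held none. A second motif, ACGTG, the core of the hypoxia response element, matched in the windows of Mmp14 and Timp1 and in 19.6% of all windows. Of the other 4 genes' windows searched for TGANTCA (Mmp14, Timp1, Timp2 and Timp3), none held it.

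Per kilobase of exon, which makes genes of different length comparable, Timp2 had the highest level of the 10 genes. Its mean was 109 CPM per kilobase, at percentile 98.9 of all tested genes, and its range over the 10 tumors (85.5 to 149) did not overlap that of any other member. Mmp13 followed at 35.1 CPM per kilobase and Mmp14 at 34.9, then Mmp3 at 23.8. Timp1 (13.2), Loxl2 (12.7), Lox (11.0), Mmp2 (9.51), Mmp9 (9.45) and Timp3 (7.46 CPM per kilobase, percentile 71.0) came after them, and from Mmp13 down each gene's range over tumors overlapped the range of the next. The place of Mmp14 and Timp3 depended on the length used. With the longest transcript in place of all exons, Mmp14 stood second at 62.3 CPM per kilobase and Timp3 seventh at 12.7.

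**Figure D1:**
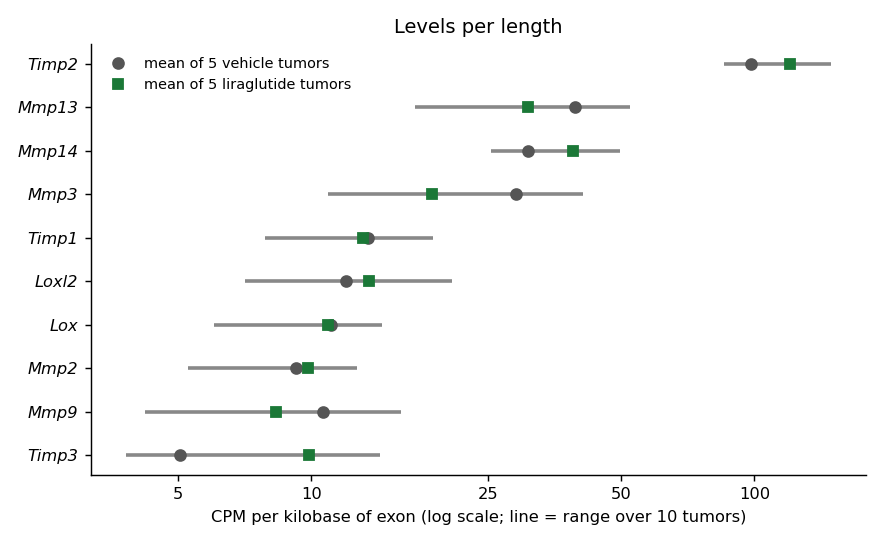
Level of each gene in CPM per kilobase of exon on a log axis. Circles and squares are the means of 5 vehicle and 5 liraglutide tumors and lines the range over all 10, and the line of Timp2 (85.5 to 149) lies clear of the other 9.

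None of the 10 genes differed between liraglutide and vehicle tumors after adjustment over all genes (edgeR quasi-likelihood test, Benjamini-Hochberg, adjusted p from 0.482 to 0.98). The same held over the whole table, with 0 of 17464 genes called (0%). DESeq2 called 45 of the 4087 genes to which it gave an adjusted p (1.1%). It gave one to 5 of the members (Mmp13, Mmp14, Timp2, Timp3 and Loxl2) and called none of them, the lowest DESeq2 adjusted p being 0.088 for Timp3. Limma-voom called 0 of the 10. At an unadjusted p under 0.05 in edgeR, 3 members were higher with liraglutide (Timp3, Timp2 and Mmp14) and 0 were lower, where 3.97% of all tested genes were higher and 5.62% lower. In none of the 10 did the groups stand fully apart, against 0.607% of tested genes that lay wholly higher with liraglutide and 0.888% wholly lower. The median log2 fold change was -0.35 over the 5 metalloproteinases, 0.29 over the 3 inhibitors and 0.07 over the 2 lysyl oxidases, beside -0.02 over all tested genes. Labels do not state more of the samples' independence than separate tumor numbers, so the p-values measure the spread between these tumors.

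**Figure D2:**
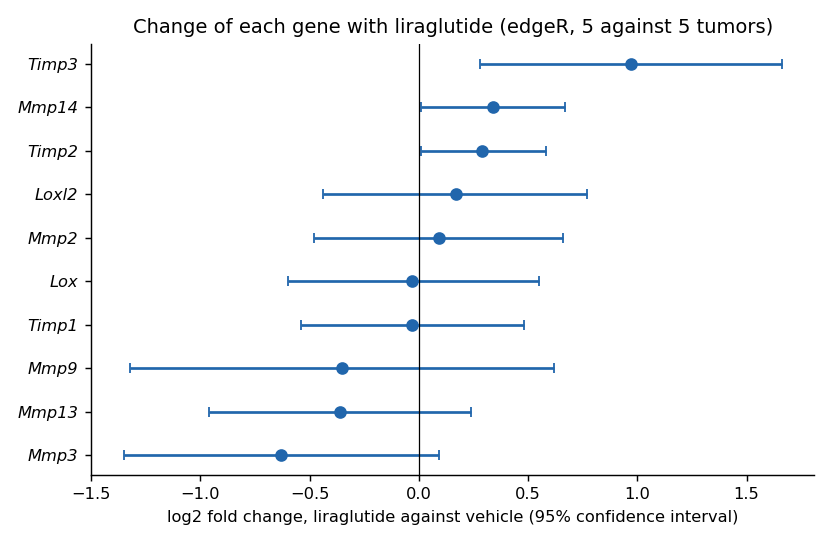
Log2 fold change of each gene, liraglutide against vehicle, with its 95% confidence interval from the edgeR fit to 5 against 5 tumors. The intervals of Timp3 (0.28 to 1.66), Mmp14 (0.01 to 0.67) and Timp2 (0.01 to 0.58) lie above 0 before adjustment, and those of the other 7 span it.

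Among the inhibitors, Timp3 had the widest difference between groups. In the vehicle tumors it was at 34.9, 31.1, 43.3, 61.6 and 34.7 CPM (tumors 1 to 5), a mean of 41.1 ± 12.3 (SD, n = 5). In the liraglutide tumors it was at 50.6, 36.8, 88.9, 109 and 116 CPM, a mean of 80.4 ± 35.3. Liraglutide 3, 4 and 5 exceeded every vehicle tumor, whereas liraglutide 1 and 2 lay inside the vehicle range. Those 3 were the liraglutide tumors on the positive side of the first principal component, where vehicle 4, the highest vehicle tumor, and vehicle 5 also lay. The ratio of the means was 1.95 and the log2 fold change 0.97 ± 0.31 (SE), with an unadjusted p of 0.0104 and an adjusted p of 0.482 in edgeR. An exact two-sided permutation test on this gene alone gave p = 0.0635, where the design allows no value under 0.00794. With any 1 tumor left out, the log2 fold change stayed between 0.8 and 1.17 and the unadjusted edgeR p between 0.00124 and 0.0306. Timp3 (ENSMUSG00000020044.13, chr10:86136236-86185371, plus strand) overlaps Syn3 on the opposite strand and shares 1734 exon bases with it, and Syn3 had 6 to 37 counts per tumor where Timp3 had 307 to 1565.

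Timp2, the inhibitor that also bridges Mmp14 to proMmp2, was the most abundant and the least variable. Vehicle tumors 1 to 5 had 382, 407, 524, 446 and 427 CPM (437 ± 54.3) and liraglutide tumors 664, 442, 553, 471 and 545 CPM (535 ± 86.4). Liraglutide 1, 3 and 5 lay above all vehicle tumors, and all 5 lay above the vehicle median of 427. The log2 fold change was 0.29 ± 0.13, with an unadjusted p of 0.0455 and an adjusted p of 0.515 in edgeR, and the exact permutation test gave p = 0.0556. Under leave-one-out it ran from 0.2 to 0.37 and stayed under an unadjusted 0.05 in 3 of 10 fits. Timp2 (ENSMUSG00000017466.9, chr11:118191887-118246566, minus strand) shares 332 exon bases with Cep295nl on the same strand (138 to 253 counts per tumor), and reads there cannot be assigned to either gene.

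Timp1, an inhibitor known to be induced by cytokines, did not separate the groups. It was at 28.8, 31.4, 36.9, 18.3 and 15.4 CPM in the vehicle tumors and 30.4, 29.0, 19.9, 23.1 and 25.6 CPM in the liraglutide tumors. The vehicle tumors held both the highest and the lowest values. Tumors on the negative side of the first principal component had 28.8 to 36.9 CPM, and those on its positive side 15.4 to 25.6 CPM. The log2 fold change was -0.03, with a 95% interval of -0.54 to 0.48. Timp1 (ENSMUSG00000001131.11, chrX:20736316-20740976, plus strand) lies within Syn1, which runs on the opposite strand and shares 0 exon bases with it.

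Of the 5 metalloproteinase members, the membrane enzyme Mmp14 was the only one at a higher level with an unadjusted p under 0.05. It was at 198, 192, 233, 170 and 157 CPM in the vehicle tumors (190 ± 29.2) and 306, 205, 193, 265 and 232 CPM in the liraglutide tumors (240 ± 46.3). Liraglutide 1 and 4 exceeded all vehicle tumors, and all 5 exceeded the vehicle median of 192. Its log2 fold change was 0.34 ± 0.15 (unadjusted p of 0.043 and adjusted p of 0.515 in edgeR), and the exact permutation p was 0.0635. With 1 tumor left out it ran from 0.24 to 0.43, and 3 of 10 fits kept an unadjusted p under 0.05. The gene (ENSMUSG00000000957.11) lies at chr14:54668878-54682821 on the plus strand.

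Mmp3 (stromelysin-1) and Mmp13 (a collagenase) had lower means with liraglutide, neither past the threshold. Mmp3 was at 60.4, 74.1, 48.6, 57.6 and 20.0 CPM in the vehicle tumors (52.2 ± 20.1) and 49.4, 41.8, 19.6, 29.3 and 28.4 CPM in the liraglutide tumors (33.7 ± 11.8). All 5 liraglutide values lay below the vehicle median of 57.6, while vehicle 5 sat at the bottom of both groups together with liraglutide 3. The log2 fold change was -0.63 ± 0.33, with an unadjusted p of 0.0802 and an adjusted p of 0.56 in edgeR. Without vehicle 5, the library that stood apart on the second component, it was -0.83 with an unadjusted p of 0.00595 and an adjusted p of 0.305, and without vehicle 2 it was -0.47 with an unadjusted p of 0.19. The unadjusted p was under 0.05 in 2 of the 10 leave-one-out fits.

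Mmp13 was at 95.1, 110, 108, 134 and 80.5 CPM in the vehicle tumors (105 ± 19.7) and 140, 101, 45.7, 62.0 and 62.8 CPM in the liraglutide tumors (82.2 ± 38.1). Liraglutide 3, 4 and 5 lay below every vehicle tumor and liraglutide 1 above every one of them. The log2 fold change of -0.36 ± 0.27 had an unadjusted p of 0.218 and an adjusted p of 0.671 in edgeR. Without liraglutide 1 it was -0.64, with an unadjusted p of 0.0173, and without liraglutide 3 it was -0.2.

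Mmp9, the gelatinase of neutrophils and macrophages, formed 2 separate sets of tumors that crossed the treatment. Vehicle 1, 2 and 3 had 59.0, 55.0 and 48.5 CPM and liraglutide 1 and 2 had 53.9 and 41.5 CPM. Vehicle 4 and 5 had 17.9 and 15.6 CPM, and liraglutide 3, 4 and 5 had 16.8, 21.8 and 19.7 CPM. No tumor lay between 21.8 and 41.5 CPM. The 5 higher tumors were the 5 on the negative side of the first principal component of all genes, and the 5 lower ones those on its positive side. The log2 fold change of -0.35 (95% interval -1.32 to 0.62) was the least precise of the 10, and it ran from -0.65 to -0.16 with 1 tumor left out. Mmp9 (ENSMUSG00000017737.2) lies at chr2:164780439-164797771 on the plus strand.

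Mmp2, the gelatinase of fibroblasts, was at 38.2, 44.8, 41.3, 20.0 and 18.6 CPM in the vehicle tumors and 42.1, 27.8, 27.7, 35.0 and 40.8 CPM in the liraglutide tumors. Vehicle 4 and 5 were the lowest, and the liraglutide values all lay inside the vehicle range. The log2 fold change was 0.09, with a 95% interval of -0.48 to 0.66. Mmp2 (ENSMUSG00000031740.8) lies at chr8:93553902-93580049 on the plus strand.

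The lysyl oxidases did not separate the groups either. Lox was at 51.6, 70.1, 70.8, 49.8 and 32.3 CPM in the vehicle tumors and 66.4, 29.8, 42.2, 68.5 and 62.5 CPM in the liraglutide tumors, a log2 fold change of -0.03 (95% interval -0.6 to 0.55). Loxl2, which also acts on collagen IV of basement membranes, was at 58.4, 64.6, 109, 59.7 and 39.2 CPM and 115, 55.5, 60.1, 82.7 and 59.0 CPM, a log2 fold change of 0.17 (95% interval -0.44 to 0.77). The groups overlapped over most of their range for both genes, with liraglutide 2 the lowest tumor for Lox and vehicle 5 the lowest for Loxl2. Lox (ENSMUSG00000024529.14) lies on the minus strand of chromosome 18 and Loxl2 (ENSMUSG00000034205.16) at chr14:69846209-69933283 on the plus strand, where it shares 943 exon bases with R3hcc1 on the opposite strand (75 to 194 counts per tumor).

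**Figure D3:**
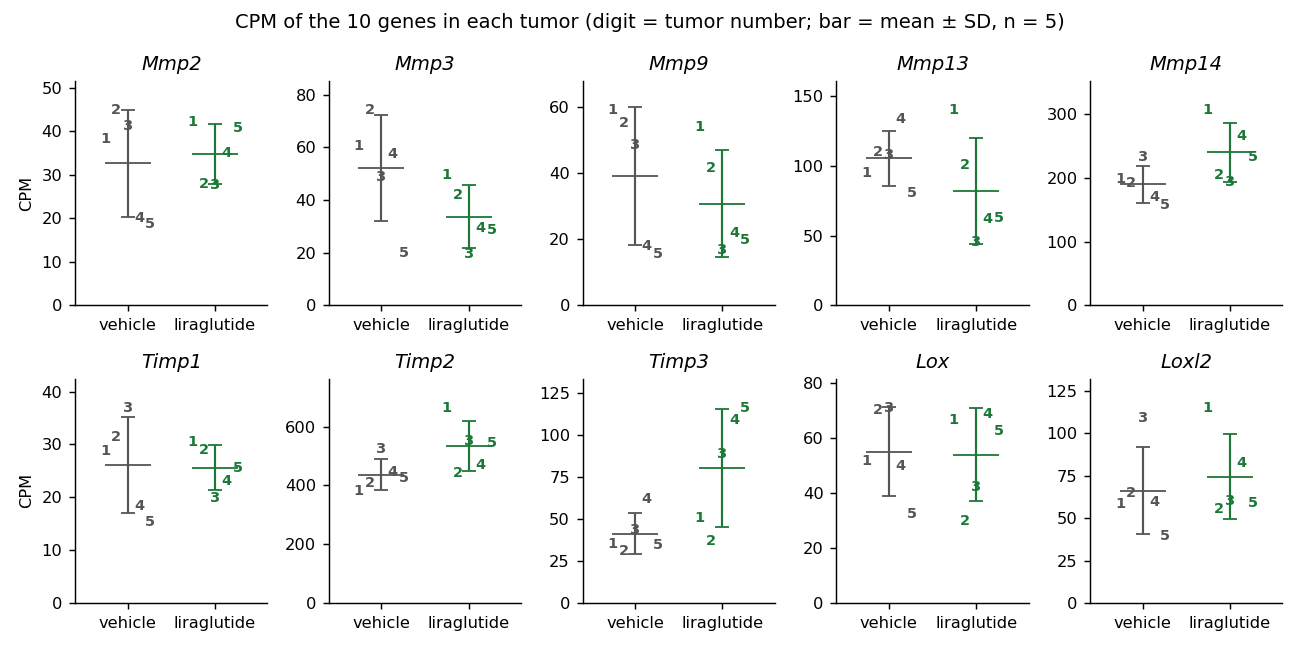
CPM of each gene in the 5 vehicle and 5 liraglutide tumors on linear axes from 0, with digits giving the tumor number and bars the mean and SD (n = 5). Timp3 of liraglutide 3, 4 and 5 (88.9 to 116 CPM) lies above every vehicle tumor, and Mmp9 leaves a gap between 21.8 and 41.5 CPM in both groups.

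Ratios of enzyme to inhibitor within a tumor do not depend on library size. They are given per kilobase of exon as descriptions, without a test, since their parts were compared above. Their absolute size depends on the length used, as given above for Mmp14 and Timp3 (longest transcript in place of all exons), whereas the order of the tumors within a ratio of 2 genes does not. The summed level of the 5 metalloproteinases over that of the 3 inhibitors was 1.22, 1.27, 0.916, 1.03 and 0.706 in the vehicle tumors (1.03 ± 0.231) and 0.915, 0.956, 0.494, 0.752 and 0.627 in the liraglutide tumors (0.749 ± 0.194). Liraglutide 3 and 5 had the lowest ratios, and the groups overlapped through vehicle 3 and 5 and liraglutide 1, 2 and 4. Mmp13 over Timp3 was 8.31, 10.8, 7.57, 6.62 and 7.07 in the vehicle tumors. It was 8.43 and 8.32 in liraglutide 1 and 2 but 1.57, 1.73 and 1.64 in liraglutide 3, 4 and 5. These 3 lay on the positive side of the first component, but so did vehicle 4 and 5, at 6.62 and 7.07. Liraglutide 3, 4 and 5 were also the lowest for Mmp3 over Timp3, at 0.999, 1.22 and 1.1, where the vehicle tumors ran from 2.61 to 10.8. Mmp14 over Timp2, the pair that activates proMmp2, was 0.316 ± 0.0458 with vehicle and 0.328 ± 0.0562 with liraglutide, a difference smaller than the SD of either group. Mmp9 over Timp1 was 0.751 ± 0.247 and 0.609 ± 0.228, and Loxl2 over Lox 1.07 ± 0.2 and 1.28 ± 0.335.

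**Figure D4:**
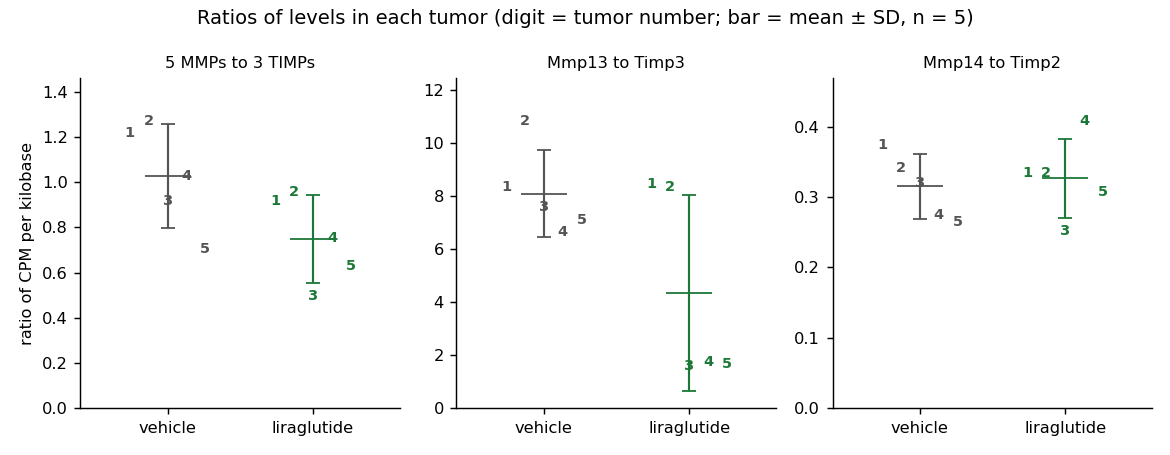
Ratios of levels per kilobase of exon in each tumor, with digits giving the tumor number and bars the mean and SD (n = 5), on linear axes from 0. Mmp13 over Timp3 lies at 1.57 to 1.73 in liraglutide 3, 4 and 5 and at 6.62 or more in the other 7 tumors, while Mmp14 over Timp2 covers a similar range in both groups.

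Levels of the members were also compared with each other across the 10 tumors. Of their 45 pairs, 38 had a positive Pearson correlation of log2 CPM, 12 had an unadjusted permutation p under 0.05, and 3 passed after adjustment over the pairs, while 0 passed by Spearman's rho. Mmp2 and Timp1 gave r = 0.86 (permutation p = 0.00172, adjusted p = 0.0387) and rho = 0.88 (permutation p = 0.00134, adjusted p = 0.0603). Without the 2 tumors farthest from the median of Mmp2 r was 0.61, and with the treatment means subtracted it was 0.87. Leaving out 1 tumor gave an adjusted p from 0.0072 to 0.105, with the call lost in 6 of 10 fits (without vehicle 1, 2 or 5, or liraglutide 1, 3 or 4). Mmp14 and Loxl2 gave r = 0.84 (permutation p = 0.0031, adjusted p = 0.0465) and rho = 0.64 (adjusted p = 0.23), and r = 0.71 without the 2 farthest tumors. That call was lost in 7 of 10 fits (without vehicle 1, 2 or 5, or liraglutide 1, 2, 3 or 4). The third pair was Mmp9 and Timp1. Its pooled coefficient is not given, because Mmp9 splits the tumors into 2 separate sets of 5, too few for a coefficient within each. The call of this pair was lost in 6 of 10 fits with 1 tumor left out (adjusted p from 0.0205 to 0.0821). Timp1 divided the same 5 tumors from the other 5, at 28.8 to 36.9 against 15.4 to 25.6 CPM. The gap was narrower than that of Mmp9, and the pooled coefficients of Timp1 here and below span both sets. The chromosome 9 neighbors Mmp3 and Mmp13 gave r = 0.80 (permutation p = 0.00587, adjusted p = 0.066), Lox and Loxl2 0.73 (adjusted p = 0.102), and the activating pair Mmp14 and Timp2 0.68 (adjusted p = 0.135), none past the threshold.

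Mmp2 ran with the fibroblast markers from tumor to tumor. Against the mean log2 CPM of 10 fibroblast markers, 3 of them fibrillar collagen genes, it gave r = 0.97 (permutation p = 4e-05, adjusted p = 0.0044 over 110 pairs of member and marker list) and rho = 0.94 (adjusted p = 0.0264). The relation held without the 2 tumors farthest from the median (r = 0.91), with the treatment means subtracted (r = 0.97) and with any 1 tumor left out (r from 0.96 to 0.98). The gene most like Mmp2 over the 10 tumors was Col3a1, a fibrillar collagen that is itself among those markers, at r = 0.987, followed by Gpx3 (0.963) and Lgi2 (0.952). Timp1 gave r = 0.84 against the fibroblast markers (permutation p = 0.00268, adjusted p = 0.059) and 0.51 without the 2 farthest tumors. Lox gave r = 0.80 (permutation p = 0.00734, adjusted p = 0.116) and 0.7 without the 2 farthest, with rho = 0.88 (adjusted p = 0.0473). The fibroblast markers themselves had a median log2 fold change of 0.06 with liraglutide, and 0 of 10 were called by edgeR, with 2 higher at an unadjusted p under 0.05. Against the endothelial markers Mmp2 and Timp1 gave r = 0.78 and 0.77 (adjusted p = 0.116 for both), neither past the threshold. Without the 2 farthest tumors r was 0.59 and 0.61. With the treatment means subtracted it was 0.87 (adjusted p = 0.0207) and 0.80 (adjusted p = 0.0556).

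Mmp9 and Mmp3 ran opposite to the sparse T and NK cell markers, Mmp3 past the adjusted threshold by rho but not by r. Pooled over the tumors, neither gene passed with another marker list by r or rho. Mmp9 against the T and NK cell markers was the only other pair of member and marker list past the adjusted threshold by Pearson r. Because of the 2 sets of tumors its values are given in place of a pooled coefficient. The 5 tumors at 41.5 CPM or more had mean marker levels of -0.51, -0.40, 0.18, 0.25 and 0.78 (log2 CPM, in vehicle 1, 2 and 3 and liraglutide 1 and 2), and the other 5 had 1.22 to 2.07. The same higher-Mmp9 tumors had lung marker levels of 2.88 to 4.12 against 4.10 to 5.16 in the other 5, and macrophage marker levels of 4.80 to 5.28 against 5.18 to 5.84, both overlapping. Mmp3 gave r = -0.87 (permutation p = 0.00163, adjusted p = 0.059) and rho = -0.89 (adjusted p = 0.044), with r = -0.81 without the 2 farthest tumors and -0.84 (adjusted p = 0.0207) with the treatment means subtracted. With the lung, muscle, epithelial and macrophage markers Mmp3 gave r from -0.68 to -0.64 (adjusted p = 0.195 for each). Timp1 gave r = -0.75 with the T and NK cell markers (adjusted p = 0.147) and -0.68 with the lung markers (adjusted p = 0.195), and -0.86 (adjusted p = 0.0284) and -0.82 (adjusted p = 0.0473) with the treatment means subtracted. All 8 tested T and NK cell markers had a higher estimate with liraglutide (median log2 fold change 0.71), none past an unadjusted p of 0.05. The NK cell genes Ncr1 and Klrb1c did not pass the low-count filter, so the mean levels of this list rest on T cell genes and Nkg7. The part of any of these cells in the values of Mmp9, Mmp3 and Timp1 was not tested.

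Timp3 ran with the macrophage markers, at r = 0.79 (permutation p = 0.00823, adjusted p = 0.116) and rho = 0.82 (adjusted p = 0.123), neither past the threshold, and at r = 0.83 (adjusted p = 0.0473) with the treatment means subtracted. Its coefficient was 0.71 with the lung markers, 0.69 with the T and NK cell markers, 0.67 with the muscle markers and 0.64 with the epithelial markers (adjusted p = 0.195 for each). With the keratinocyte markers it was 0.35 (adjusted p = 0.632), and 0.03 with the treatment means subtracted. Of the macrophage markers, 1 of 10 was higher with liraglutide at an unadjusted p under 0.05, with a median log2 fold change of 0.24. Mrc1, the most abundant of the 10 in CPM, had the only negative estimate, at 537 CPM with vehicle and 322 CPM with liraglutide (-0.74, unadjusted p of 0.0564). Keratinocyte markers ran from 12.0 to 24.5 CPM in sum in vehicle tumors and from 13.1 to 235 CPM in liraglutide tumors. Of them, 6 of 7 tested were higher at an unadjusted edgeR p under 0.05, where 3.97% of all tested genes were. Muscle markers ran from 48.5 to 328 CPM and from 111 to 432 CPM. Whether these cells contributed to the Timp3 values was not tested. The genes most like Timp3 over the 10 tumors were Mapt (r = 0.969), Dmd (0.951) and Gm46447 (0.944).

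**Figure D5:**
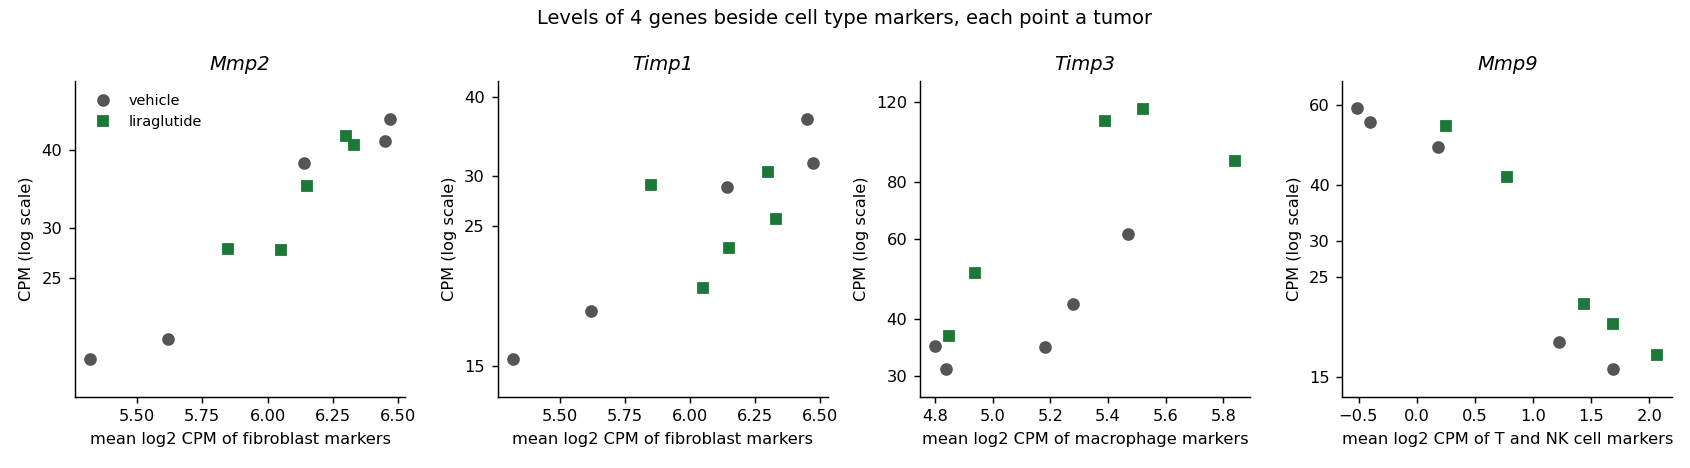
CPM of 4 genes (log axis) against the mean log2 CPM of a cell type's markers, each point a tumor. Mmp2 rises along the fibroblast markers in both groups, and Mmp9 falls into a set at 41.5 CPM or more and a set at 21.8 CPM or less.

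For the other members the closest genes were Dync2i2, Rnf2 and Hdac11 for Mmp3 (r of 0.953, 0.949 and 0.946), Lca5l, Glmn and Gm5805 for Mmp13 (0.918, 0.916 and 0.895) and Emilin2, Zfp219 and Ptpn21 for Mmp14 (0.957, 0.938 and 0.916). They were Carm1, Gm38120 and Gm8127 for Timp1 (0.973, 0.953 and 0.946) and Rsrp1, Ajuba and Chmp7 for Timp2 (0.943, 0.94 and 0.936). For the lysyl oxidases they were Gm50012, Arsi and Grb10 for Lox (0.917, 0.911 and 0.906) and Pbrm1, Med4 and Ppic for Loxl2 (0.962, 0.943 and 0.941), and for Mmp9, without a coefficient, Xylt2, Mutyh and Pcbp2. These are the 3 highest coefficients among 17464 genes over the same 10 libraries and are given as descriptions.

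Of 104 further genes of the pathway in the table, 86 were tested, 0 were called by edgeR or limma-voom or among the 33 to which DESeq2 gave an adjusted p, and 9 were higher and 3 lower with liraglutide at an unadjusted edgeR p under 0.05 (3.97% and 5.62% of all tested genes). Among the other 18 metalloproteinases, 11 were tested, with a median log2 fold change of 0.21. Mmp10 (stromelysin-2), whose promoter is shown above, was at a mean of 17.4 ± 10.6 CPM with vehicle and 7.87 ± 3.74 CPM with liraglutide, a log2 fold change of -1.15 ± 0.46 (unadjusted p of 0.0299, adjusted p of 0.503 in edgeR). Mmp11 (stromelysin-3) was at 6.45 and 9.55 CPM (log2 fold change 0.57, unadjusted p of 0.0377) and Mmp8, named after its values were seen, at 0.676 and 1.24 CPM (0.86, unadjusted p of 0.0453). Mmp15, a membrane enzyme, had the highest level per length of these and differed by 0.13. The inhibitors Reck (-0.12) and A2m (0.20) were the only 2 of 6 further inhibitors tested, both below 2 CPM on average.

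Enzymes and partners of crosslinking had no called member. Of 7 further crosslinking enzymes the median was 0.11, and Plod2, which hydroxylates collagen lysines, was at 126 ± 73.1 CPM with vehicle and 58.3 ± 27.6 CPM with liraglutide (log2 fold change -1.11, unadjusted p of 0.0337 in edgeR). Vehicle 1, 2 and 3 had 171, 164 and 201 CPM of Plod2. Vehicle 4 and 5 had 52.9 and 42.4 CPM, inside the liraglutide range of 31.6 to 100 CPM. Tgm2, a transglutaminase, was at 88.8 and 140 CPM (0.66, unadjusted p of 0.0813). Among 8 tested genes that process or guide lysyl oxidases and their substrates, Fbln5, an elastic fiber protein, was at 18.3 ± 19.7 CPM and 65.0 ± 32.0 CPM (log2 fold change 1.82, unadjusted p of 0.0106, adjusted p of 0.482 in edgeR) and Pcolce, which enhances procollagen cleavage, differed by 0.77. Postn, a matricellular protein, differed by 0.03.

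Of 14 collagens, fibronectin, laminin and other substrates, 11 had a positive estimate and 2 were higher at an unadjusted p under 0.05, with a median of 0.17 and 0 called. Eln, the elastin crosslinked by lysyl oxidases, was at 4.64 ± 1.69 CPM and 10.8 ± 4.76 CPM (log2 fold change 1.22, unadjusted p of 0.00535, adjusted p of 0.482 in edgeR). Bgn, a small proteoglycan, was at 1450 ± 201 CPM and 2140 ± 539 CPM (0.56, unadjusted p of 0.00757). Col3a1 differed by -0.01 and Col1a1 by 0.34, both with an unadjusted p over 0.05.

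Activators and inducers of metalloproteinases were mixed. Of 10 tested genes of the plasmin and proprotein convertase systems, 5 had a positive and 5 a negative estimate (median -0.04). Serpinb2, an inhibitor of urokinase, was at 17.7 and 8.63 CPM (log2 fold change -1.03, unadjusted p of 0.0399), the urokinase receptor Plaur at 93.2 and 72.0 CPM (-0.37), and Bsg, an inducer of metalloproteinases, differed by 0.00. Of 18 ADAM and ADAMTS proteases, 13 had a positive estimate (median 0.15), with Adamts9 at 0.64 (unadjusted p of 0.0451) and Adamts12 at 0.33, and Adam9 at -0.14. Of 6 tested AP-1 subunits, 5 had a negative estimate (median -0.40), among them Fos (-0.67), Fosl1 (-0.48) and Junb (-0.22), none at an unadjusted p under 0.05. Jund was listed at 0 counts in every tumor and was not among the 6. Whether that reflects its expression or how reads were counted was not tested. Of 10 tested ligands that induce metalloproteinases or lysyl oxidases the median was 0.03. Pdgfb was the 1 gene of the 86 whose groups did not overlap, where 0.607% of all tested genes lay wholly higher, at 22.7 ± 2.14 CPM with vehicle and 29.3 ± 3.11 CPM with liraglutide (log2 fold change 0.36, unadjusted p of 0.00725, adjusted p of 0.482 in edgeR), and its margin was narrow, with the highest vehicle tumor at 25.2 CPM and the lowest liraglutide tumor at 25.6 CPM. Tgfb2 differed by 0.80 (unadjusted p of 0.0157) and Tgfb1 by -0.12.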

How the data were processed

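RNA from 10 tumors (5 per group, grouped by the labels' treatment and numbered by their titles) was sequenced after ribosomal depletion with a stranded kit. The values are raw counts per gene as deposited by the authors, who aligned the reads with Bowtie 1.0.1 and TopHat 2.0.13 and counted them with featureCounts. The methods name GRCm39 and the submitters' processing notes mm10 and GRCh38. The annotation release and the strand setting of counting are not given in the sources used here. Gene IDs were matched to GENCODE M39 without their version (51731 of 55401). Positions and lengths are from that release and may differ from the build used for counting.

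The study's methods name DESeq2 as its own test, while the legend of its volcano plot names ANOVA with Benjamini-Hochberg correction. Here edgeR 4.0.16 (filterByExpr, TMM scaling, quasi-likelihood test, Benjamini-Hochberg adjustment) was the main test on the deposited counts, and DESeq2 1.42.0 and limma-voom 3.58.1 were alternatives, in R 4.3.3. CPM are relative to TMM-scaled library sizes. Correlations and exact tests used log2 CPM with a prior count of 2, with 100000 permutations for the 10-tumor correlations (scipy 1.17.1). Leave-one-out, library size alone, no low-count filter, DESeq2 size factors and tumor number as a block were also tried. Counting error sets the floor of 3 counts only.

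The members and gene lists were chosen with earlier results of these data known. Named genes beside the members were the 2 with the smallest unadjusted p and the 1 with the highest level per length in each pathway list, the 3 closest genes by correlation, genes that overlap a member, and marker genes near 0 or high where a cell type or the tumor label was checked. Lists covered pathway genes and markers of 11 cell types, and 2 listed symbols, Fbln4 and Lor, were not in the table under those names. Protein sequences were not used here.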

Additional observations from a re-analysis of the deposited data

How the results depend on the processing

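No member or further pathway gene was called under DESeq2 (which gave an adjusted p to 5 members and 33 further genes), limma-voom, DESeq2 size factors, library size alone, no low-count filter, the replicate block or any leave-one-out fit. The number of members at an unadjusted p under 0.05 was 3 as reported and 1 to 3 with 1 tumor left out, lowest without vehicle 1, 2 or 4 or without liraglutide 5, and not always the same genes. Without liraglutide 1 the 3 were Timp3, Mmp13 and Mmp3, and without vehicle 5 the 2 were Timp3 and Mmp3. The directions of the 3 (Timp3, Timp2 and Mmp14) and of Mmp3, Mmp9 and Mmp13 were kept in every alternative. Estimates near 0 changed sign. Timp1 was at 0.04 with limma-voom, 0.03 with library size alone, 0.03 with the replicate block, and -0.17 to 0.13 with 1 tumor left out. Lox was at 0.04 with library size alone (0.01 as the difference of mean log2 CPM) and at -0.16 to 0.13 with 1 tumor left out. Mmp2 ran from -0.05 to 0.23 and Loxl2 from -0.04 to 0.43 with 1 tumor left out. With library size alone the exact permutation p fell to 0.0476 for Mmp14 and 0.0397 for Timp2. Member pairs past the adjusted threshold numbered 3 as reported, 1 with library size alone and 0 to 7 with 1 tumor left out. Pairs of member and marker list numbered 2 as reported (Mmp2 with fibroblast markers and Mmp9 with T and NK cell markers), 10 with treatment means subtracted and 2 to 4 with 1 tumor left out. The cause of these shifts was not tested.

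Same-numbered tumors did not all deviate together (correlations 0.354, 0.565, -0.075, 0.068 and 0.389 for numbers 1 to 5, with a mean of 0.26 against -0.068 for tumors of different number), and 1 of 5 vehicle and 2 of 5 liraglutide tumors correlated best with their own number. Since 2 of the 5 correlations were under 0.1, the numbers were not taken as pairs. With tumor number as a replicate block, 2 members had an unadjusted p under 0.05, Timp3 (0.0025) and Mmp3 (0.0428), while Timp2 (0.0542) and Mmp14 (0.0582) did not.

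All 10 members had at least 189 counts in the tumor where they were lowest. With 5 tumors per group, the 95% intervals of the log2 fold changes still left differences of 1.66 for Timp3 and of -1.35 for Mmp3 possible.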
